A study of Mus musculus with 4 samples.

Results

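Heavy chain genes of the major histocompatibility complex (MHC) class I, H2-K1, H2-D1, H2-Q7 and H2-T9, were followed in mouse cardiac endothelium after injection of lipopolysaccharide (LPS). They were taken by name from the platform annotation, as every oligonucleotide whose only gene symbol was 1 of these 4, and the names had been chosen from the ratios measured on these same arrays. The values below therefore describe the 4 genes and carry no test. They were 4 of 11138 named genes on the arrays. H2-K1 and H2-D1 were each represented by 2 oligonucleotides, H2-Q7 and H2-T9 by 1, and each oligonucleotide was spotted 2 times. This gave 12 of the 32448 spots of an array.

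Endothelium had been isolated from the hearts of mice that received LPS or saline by the intraperitoneal route, and amplified RNA of both was hybridised together to long-oligonucleotide arrays with 2 colours. There were 4 arrays, 2 at 4 h and 2 at 24 h. On replicate 1 of each time LPS RNA carried Cy5, and on replicate 2, the dye reversal, it carried Cy3. The labels name no separate animals for the reversed arrays, so the 2 arrays of a time count as 1 replicate. The SD given below is that of the arrays (n = 2 arrays) and covers array and dye error. Whether it also holds any spread between animals is not known, and it is not read as such. The labels give no strain, age, sex, LPS dose or number of animals, and do not say whether both times shared saline RNA. Only ratios were available, so the presence of endothelial markers in the samples could not be checked by level. Precision is limited by the number of arrays.

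All values are log2 ratios of LPS over saline, in which 1 unit is 2-fold. The table does not state its direction, which is called likely on the basis of the labelled dyes. The 2 arrays of a time correlated at r = -0.056 (4 h) and r = -0.064 (24 h) over all spots, which settled nothing. Among 5023 and 3668 oligonucleotides with closely agreeing duplicate spots, r was -0.37 and -0.50, and the sign of replicate 2 was turned for that reason, after the data had been seen. At the spots of the 4 class I genes the deposited signs were opposite on the 2 arrays in 12 of 12 spots at 4 h and 11 of 12 at 24 h. These genes had been chosen from the ratios themselves, so their signs cannot decide the direction. Were the deposited ratios Cy3 over Cy5 instead, higher would read lower throughout. If no sign needed turning, the gene means at 4 h and 24 h would be 0.32 and -0.25 for H2-K1, 0.54 and 0.49 for H2-D1, 0.30 and -0.46 for H2-Q7, and 0.41 and 0.54 for H2-T9.

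Class I molecules display peptides from inside the cell to CD8 T cells and to receptors of natural killer cells. A polymorphic heavy chain pairs with beta-2 microglobulin and is loaded in the endoplasmic reticulum with peptides that the proteasome cuts and the TAP transporter imports. H2-K1 and H2-D1 encode the classical chains K and D, which nearly all nucleated cells carry. H2-Q7 encodes a Qa-2 molecule and H2-T9 belongs to the T region, both classed as non-classical. Interferons and tumour necrosis factor are known to raise transcription of class I genes in endothelium, through an interferon-responsive element and an NF-kB element that stand side by side upstream of the start, and through a module bound by the regulator NLRC5.

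The promoter stretches are shown because H2-K1, H2-D1 and H2-Q7 had near-equal ratios at 4 h. Promoter windows came from RefSeq (GRCm38.p6) and ran from 250 bases before to 50 after a transcript start. Of the 4 genes 3 had a window, and H2-T9 did not. Where a gene had 2 windows, as H2-K1 did, the one with the start furthest downstream was used. The H2-K1 stretch therefore lies within the annotated gene, whose 5′ end is at 34000619. Each stretch below has 68 bases, 5′ to 3′ on the strand of the gene. Capitals mark matches to the NF-kB consensus and, further to the right in all but B2m, to the interferon regulatory factor (IRF) core AANNGAAA, on either strand. H2-Q10, H2-T22 and H2-M3 are other class I genes of the array, and B2m encodes beta-2 microglobulin. The stretches lie at chr17:34000410-34000477 (- strand) for H2-K1, chr17:35262904-35262971 (+) for H2-D1, chr17:35439002-35439069 (+) for H2-Q7, chr17:35469894-35469961 (+) for H2-Q10, chr17:36042906-36042973 (-) for H2-T22, chr17:37270093-37270160 (+) for H2-M3 and chr2:122147510-122147577 (+) for B2m.
H2-K1: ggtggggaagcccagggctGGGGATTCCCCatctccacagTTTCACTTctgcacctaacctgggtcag
H2-D1: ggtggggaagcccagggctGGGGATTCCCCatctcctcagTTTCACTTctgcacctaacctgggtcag
H2-Q7: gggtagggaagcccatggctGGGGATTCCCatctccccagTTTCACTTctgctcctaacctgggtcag
H2-Q10: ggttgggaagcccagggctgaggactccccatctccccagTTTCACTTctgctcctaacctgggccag
H2-T22: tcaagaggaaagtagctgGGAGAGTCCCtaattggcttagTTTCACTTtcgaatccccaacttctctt
H2-M3: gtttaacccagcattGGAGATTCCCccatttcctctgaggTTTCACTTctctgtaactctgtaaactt
B2m: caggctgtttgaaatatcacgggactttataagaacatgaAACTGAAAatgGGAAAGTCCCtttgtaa

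The stretches of H2-K1 and H2-D1 shared 67 of 68 letters (98.5%) by global alignment, and that of H2-Q7 shared 63 (92.6%) with each of them. In all 3 genes 10 bases separated the NF-kB match from the IRF core, against 12 in H2-T22 and 15 in H2-M3. The NF-kB match spanned -125 to -115 from the transcript start in H2-K1, -171 to -161 in H2-D1 and -133 to -124 in H2-Q7. In H2-K1 and H2-D1 it was formed by 2 overlapping matches, 1 base apart. The IRF core started at -104, -150 and -113. Each of the 3 windows also held 1 TGACG, the core of cAMP response elements, and 2 CCAAT boxes, and held 0 matches to the interferon-stimulated response element (ISRE) core, GAAA repeated after 2 bases. The H2-Q10 stretch shared 62 letters (91.2%) with each of the 3 and had the IRF core but no letters that match the NF-kB consensus in its window. H2-T22 shared 42 letters with H2-K1, H2-M3 47 and B2m 33.

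Over all 32851 windows, the IRF core was found in 23.9%, the NF-kB consensus in 5.80%, the ISRE core in 3.44%, CCAAT in 37.4% and TGACG in 20.8%. IRF core and NF-kB consensus occurred together in 328 windows (0.998%), with starts within 30 bases of each other in 55 (0.167%). All of IRF core, NF-kB consensus, CCAAT and TGACG stood in 29 windows (0.0883%), among them those of H2-K1, H2-D1, H2-Q7, H2-T22, H2-M3 and B2m. Of these 6 genes, H2-T22, H2-M3 and B2m stood at 1.26 ± 0.02, 0.45 ± 0.20 and -0.76 ± 0.19 in the LPS over saline log2 ratio at 4 h. Such matches describe letters only, and binding at them was not measured. The part of the motifs in any ratio was not tested.

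**Figure D1:**
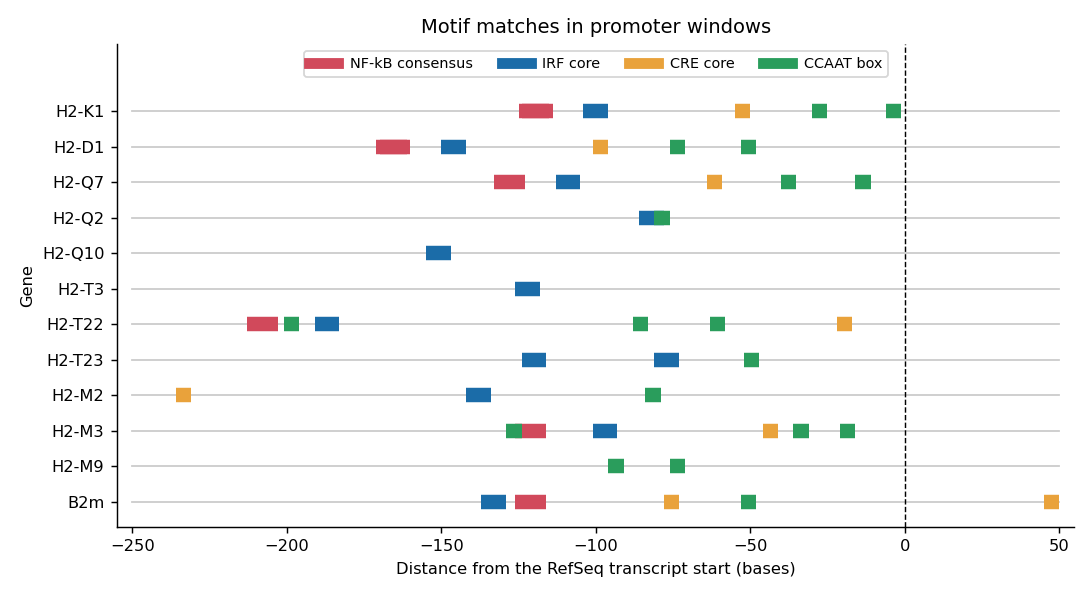
Matches to 4 motifs in the promoter windows of class I genes and B2m, against distance from the RefSeq transcript start in bases; each coloured block is 1 match on either strand and the dashed line is the start. H2-K1, H2-D1 and H2-Q7 show the same order of NF-kB consensus, IRF core, CRE core (TGACG) and 2 CCAAT boxes, shifted as a block relative to the start.

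At 4 h all 4 class I genes were higher after LPS, on both arrays and in every spot. The 2 classical chains and H2-Q7 stood at about the same ratio, close to 7- to 8-fold, and H2-T9 at about 3-fold. The 12 spots ranged from 1.92 to 3.68 (median 3.15) with LPS in Cy5 and from 1.04 to 3.16 (median 2.43) with LPS in Cy3.

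For the first oligonucleotide of H2-K1, the 2 spots read 2.90 and 3.10 on replicate 1 and 2.08 and 2.43 on replicate 2. For its second oligonucleotide they read 3.68 and 2.74, then 2.43 and 2.93. All 8 values of H2-K1 thus passed 4-fold, and the 2 oligonucleotides overlapped, with means of 2.63 ± 0.52 and 2.95 ± 0.38.

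The first oligonucleotide of H2-D1 gave 3.36 and 3.07 on replicate 1 and 3.16 and 3.02 on replicate 2, a mean of 3.15 ± 0.09. The second gave 3.36 and 3.42 with LPS in Cy5 but 1.45 and 1.34 with LPS in Cy3, a mean of 2.39 ± 1.41. Both oligonucleotides of this gene were therefore alike on replicate 1 (means of 3.21 and 3.39) and apart on replicate 2 (3.09 and 1.39), while their duplicate spots stayed close on each array.

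The H2-Q7 oligonucleotide read 3.20 and 3.40 on replicate 1 and 2.49 and 2.92 on replicate 2. H2-T9 read 2.01 and 1.92, then 1.29 and 1.04. Its array values at 4 h lay below those of the other 3 genes on both arrays, whereas the arrays of H2-K1, H2-D1 and H2-Q7 overlapped.

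With spots and oligonucleotides averaged and each array centred on its median over genes, the 4 h ratio was 2.79 ± 0.46 for H2-K1 (6.93-fold), 2.78 ± 0.76 for H2-D1 (6.86-fold), 3.01 ± 0.43 for H2-Q7 (8.05-fold) and 1.57 ± 0.58 for H2-T9 (2.97-fold). Ranked by mean among 11138 genes, H2-Q7 was 50th, H2-K1 71st, H2-D1 74th and H2-T9 341st from the top. A gene is counted as called where both arrays lay at least 2-fold from 1 on the same side. This held for 4 of 4 class I genes, for 251 genes of the whole table in the higher direction (2.25%) and for 111 in the lower (0.997%). Every spot passed 2-fold in 4 of 4, against 1.25% of all genes. These ratios chose the genes, so nothing is read from the counts. The median over the 4 was 2.78, beside -0.02 over all genes. Quantile normalization changed the split over all genes to 328 higher and 233 lower, and scaling the arrays to a common spread to 347 and 210. The 4 genes were called under both. At the 3-fold threshold 3 of 4 were, without H2-T9, which was at 1.16 on replicate 2.

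**Figure D2:**
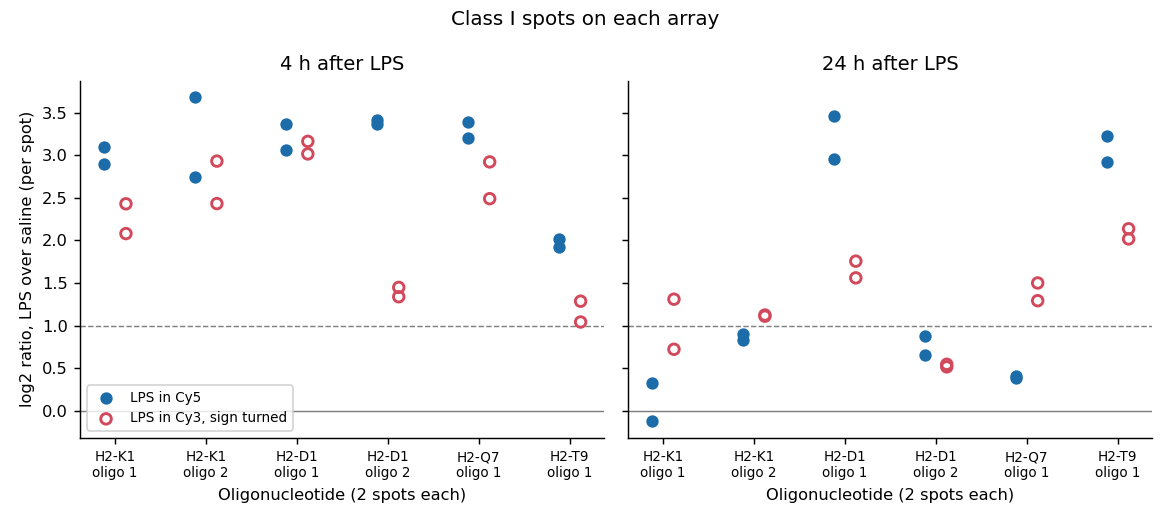
LPS over saline log2 ratio of each of the 12 spots of the 4 class I genes, by array, with filled and open markers for LPS in Cy5 and LPS in Cy3 (sign turned). At 4 h every spot lies above 1; at 24 h the spots of H2-T9 and of the first H2-D1 oligonucleotide stay above 1 on both arrays, and 1 spot of H2-K1 lies at -0.12.

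At 24 h the genes no longer lay together. H2-T9 was the highest of the 4, H2-D1 was split between its oligonucleotides, and H2-K1 and H2-Q7 were under 2-fold in the mean. The 12 spots ranged from -0.12 to 3.46 (median 0.86) on replicate 1 and from 0.52 to 2.14 (median 1.30) on replicate 2. On replicate 1 there were 4 spots past 2-fold, on replicate 2 there were 9, and 4 spots passed on both.

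H2-K1 gave 0.32 and -0.12 on replicate 1 and 1.31 and 0.72 on replicate 2 for its first oligonucleotide. Its second gave 0.90 and 0.83, then 1.11 and 1.12. The H2-Q7 spots read 0.39 and 0.41 with LPS in Cy5 and 1.293 and 1.501 with LPS in Cy3. In both genes the array with LPS in Cy3 was the higher one at 24 h, whereas at 4 h it was the lower one.

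For H2-D1, the first oligonucleotide read 2.95 and 3.46 on replicate 1 and 1.56 and 1.76 on replicate 2, with a mean of 2.43 ± 1.09. The second read 0.88 and 0.65, then 0.52 and 0.55, with a mean of 0.65 ± 0.17. Their values did not overlap on either array. The gene-level ratio of H2-D1 at 24 h thus averages an oligonucleotide that was over 2-fold in every spot and one that was under 2-fold in every spot.

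The H2-T9 spots read 2.92 and 3.23 on replicate 1 and 2.14 and 2.02 on replicate 2. Each exceeded its own value at 4 h. They belong to the only oligonucleotide with H2-T9 as its single symbol. Another, named for H2-T9 or H2-T10, read 1.07 and -0.36 at 4 h and 0.24 and 0.00 at 24 h. At the gene level H2-T9 stood at 2.55 ± 0.76 (5.88-fold), H2-D1 at 1.52 ± 0.69 (2.87-fold), H2-Q7 at 0.88 ± 0.64 (1.84-fold) and H2-K1 at 0.75 ± 0.35 (1.69-fold). In this order, the lower array of H2-T9 and the higher array of H2-D1 were both at 2.01, and the other neighbours overlapped. Among 11138 genes H2-T9 ranked 70th from the top, H2-D1 435th, H2-Q7 1357th and H2-K1 1696th.

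Of the 4 genes 2 were called at 24 h, H2-D1 and H2-T9, where 388 of all genes were called higher (3.48%) and 392 lower (3.52%). By every spot, 1 of 4 passed, H2-T9, against 1.92% of all genes. The call of H2-D1 rested on replicate 2 at 1.03. It was lost with scaled arrays, quantile normalization, the median of spots, ratios of exactly 1 left out, the 3-fold threshold, and the rule on every spot. H2-T9 was called under each of these. The median over the 4 genes was 1.20, beside -0.02 over all genes. Over all genes, 158 at 4 h and 411 at 24 h were at least 2-fold in opposite directions on the 2 arrays.

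**Figure D3:**
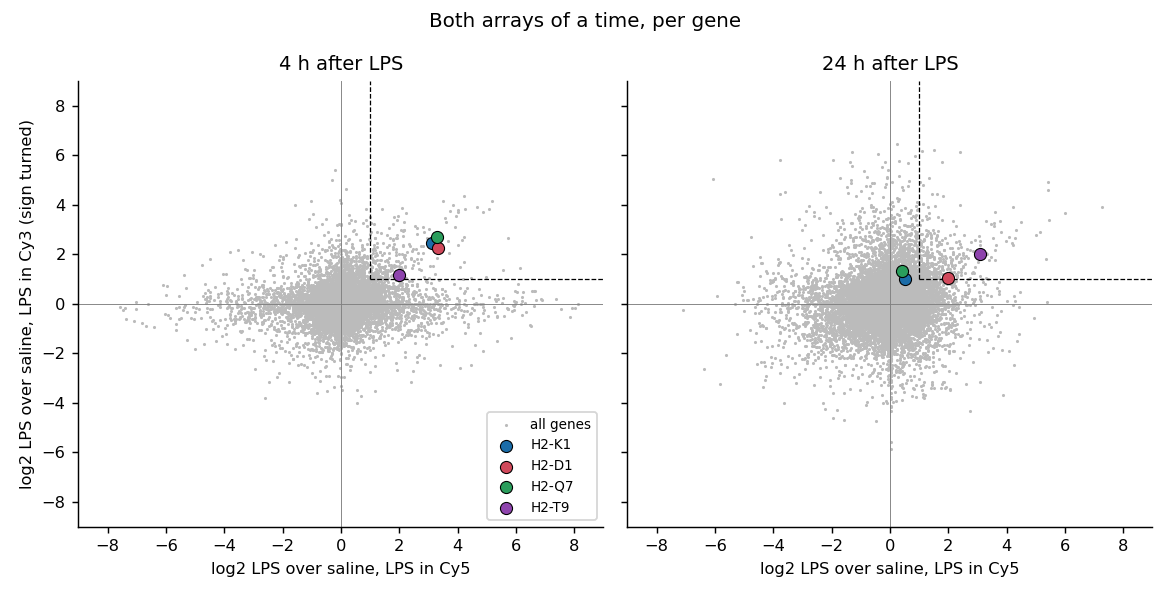
Gene-level log2 ratio on replicate 1 (LPS in Cy5, horizontal) against replicate 2 (LPS in Cy3, sign turned, vertical) at 4 h and 24 h, with all genes in grey and the 4 class I genes in colour. At 4 h the 4 genes lie beyond 1 on both axes; at 24 h H2-T9 and H2-D1 do, with H2-D1 at 1.03 on replicate 2, and H2-K1 and H2-Q7 are at 0.51 and 0.42 on replicate 1.

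Between the times, H2-K1, H2-D1 and H2-Q7 had lower ratios at 24 h than at 4 h and H2-T9 had a higher one. The difference of 24 h minus 4 h was -2.04 for H2-K1, with -2.61 between the arrays with LPS in Cy5 and -1.47 between those with LPS in Cy3. For H2-Q7 it was -2.13, from -2.89 and -1.37. For H2-D1 it was -1.26, with -1.31 and -1.21 by dye. These values average 2 unlike oligonucleotides. With LPS in Cy5 the first read 3.21 at 4 h and 3.20 at 24 h, and the second 3.39 and 0.77. With LPS in Cy3 the first read 3.09 and 1.66, and the second 1.39 and 0.53. H2-T9 differed by 0.98, with 1.12 and 0.85.

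In each gene value the 2 arrays of one time lay wholly above those of the other, and the sign was the same for both dyes. The separation did not hold for the first H2-D1 oligonucleotide, which read 3.20 on replicate 1 at 24 h and 3.09 on replicate 2 at 4 h. By the rule of separated arrays and a difference of at least 1 unit, 3 of 4 were lower at 24 h, where 10.3% of all genes were. H2-T9 missed the 1 unit by little, and 0 of 4 were higher, against 9.43% of all genes. At the spot level, its oligonucleotide differed by 1.01 without centring. Across the 4 genes the median difference was -1.65, beside -0.04 over all genes, and it was -2.62 with arrays scaled to one spread. Each difference sets 2 ratios side by side and holds any change in the saline RNA as well as in the LPS RNA. In bulk RNA such as this, fewer cells of a type and less RNA per cell cannot be told apart.

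Within H2-D1 the change with time depended on the oligonucleotide: -0.72 for the first and -1.74 for the second. Those of H2-K1 differed by -2.07 and -1.95, and that of H2-Q7 by -2.10. The second H2-D1 oligonucleotide was thus nearer to those of H2-K1 and H2-Q7 than to the first of its own gene. Class I transcripts are much alike in sequence, and an oligonucleotide designed for one can bind another. The sequences on the array were not used here, so the part of such binding in these values was not tested. Duplicate spots of the same oligonucleotide lay within 0.5 units in 21 of 24 pairs, with a largest gap of 0.94, so the differences between the oligonucleotides of H2-D1 at 24 h, and on replicate 2 at 4 h, exceeded the spread of duplicates. The median gap on the 4 arrays was 0.19, 0.30, 0.27 and 0.16 at the class I oligonucleotides, and 0.41, 0.24, 0.49 and 0.47 over 12172 named oligonucleotides.

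Other oligonucleotides of class I genes showed the same 2 patterns in part. Apart from the 6 above, 28 oligonucleotides carried 1 symbol of the H2 class I family, for 19 genes. At 4 h 5 of them were called higher (4 in every spot) and 0 lower, with a median of 0.62, beside 2.33% called higher among all named oligonucleotides. At 24 h 4 were called higher (1 in every spot) and 1 lower, with a median of 0.25, where 3.71% of all named oligonucleotides were higher. The 6 oligonucleotides of the 4 genes had medians of 2.79 and 0.95.

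The first oligonucleotide of H2-Q1, a Q region gene, read 3.37 and 2.73 at 4 h and 0.19 and 2.06 at 24 h. Its second read -0.39, -0.06, 0.19 and 0.05 on the 4 arrays, so the gene's call at 4 h (1.42 ± 0.11) came from 1 oligonucleotide. The third of H2-Q8, also of the Q region, read 3.31, 2.42, 0.95 and 1.47, close to H2-Q7 at 3.30, 2.71, 0.40 and 1.40. The fourth of H2-Q8 read 1.48, 2.54, 2.93 and 2.00 and was called at both times, but every spot passed 2-fold at 24 h only. Its largest duplicate gap was 3.11. The first and second of H2-Q8 were not called at either time.

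H2-T22, whose product is a ligand of gamma-delta T cell receptors, had 3 oligonucleotides with 3 patterns. The first read 2.86 and 1.53 at 4 h and 0.08 and 1.03 at 24 h. The third read 0.18 and 0.73, then 1.346 and 2.514. It had a largest duplicate gap of 1.80, and not every spot passed 2-fold at 24 h. The second lay between 0.67 and 1.57 on all 4 arrays. Its gene value was 1.26 ± 0.02 at 4 h, a call, and 1.09 ± 0.42 at 24 h, no call.

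H2-T23 encodes Qa-1, which presents to CD94-NKG2 receptors. Its first oligonucleotide read 0.94 and 0.59 at 4 h and 3.06 and 1.13 at 24 h, while its second, which had a duplicate gap of 3.14, was not called at either time. H2-Q10 encodes a secreted class I molecule, and its promoter stretch shared 62 of 68 letters with that of H2-K1. Its window held 0 matches to the NF-kB consensus, CCAAT or TGACG. The gene stood at 1.46 ± 0.78 at 4 h and -0.80 ± 0.45 at 24 h. H2-D4, named after its values were seen, read 4.97 and 1.11 at 4 h and 0.57 and -0.12 at 24 h.

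Of 35 listed other class I and class I-like heavy chains 22 were measured. At 4 h 3 were called higher, H2-Q8 (1.86 ± 0.88), H2-Q1 and H2-T22, and 0 lower. At 24 h 0 were called higher and 1 lower, H2-M9 at -1.53 ± 0.10. All genes were called higher in 2.25% at 4 h and lower in 3.52% at 24 h. The medians were 0.23 and -0.20. H2-M3, which presents formylated peptides and whose promoter holds both motifs, stood at 0.45 ± 0.20 and 0.26 ± 0.96, and H2-T3 at 0.06 ± 0.03 and -0.32 ± 0.19. H2-Q2 stood at 1.27 ± 0.44 and 1.77 ± 1.82, H2-T24 at -0.39 ± 0.04 and 0.93 ± 0.27, and H2-M2 at -0.25 ± 0.77 and 0.13 ± 1.21. H2-K2 and H2-Bl had arrays far apart at 24 h, with -0.96 ± 2.42 and -0.78 ± 3.15, and stood at 0.39 ± 0.11 and -0.11 ± 0.23 at 4 h. Their duplicate spots also lay far apart, with largest gaps of 6.78 and 6.41.

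The class I-like genes were not called at either time. They include the lipid-presenting Cd1d1 (-0.89 ± 1.57 at 4 h, -0.21 ± 0.15 at 24 h) and Cd1d2 (0.92 ± 1.30, -0.35 ± 1.16). Mr1, which presents vitamin B metabolites, stood at 1.04 ± 1.23 and -0.20 ± 0.49. Its 2 oligonucleotides were unlike at 4 h, at -0.15 and -0.38 for the first and 3.93 and 0.72 for the second. The second had a largest duplicate gap of 7.91. Hfe, of iron uptake, read 0.31 ± 0.20 and -0.19 ± 0.60, and the IgG carrier Fcgrt 0.10 ± 0.01 and -0.21 ± 0.28. Procr, the endothelial protein C receptor, read -0.09 ± 0.20 and -0.52 ± 1.29, and Azgp1 0.12 ± 0.08 and 0.60 ± 1.49. Of the NKG2D ligands, Raet1d read 0.01 ± 0.09 and -1.11 ± 0.22 and Ulbp1 0.08 ± 0.47 and -0.22 ± 0.22.

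**Figure D4:**
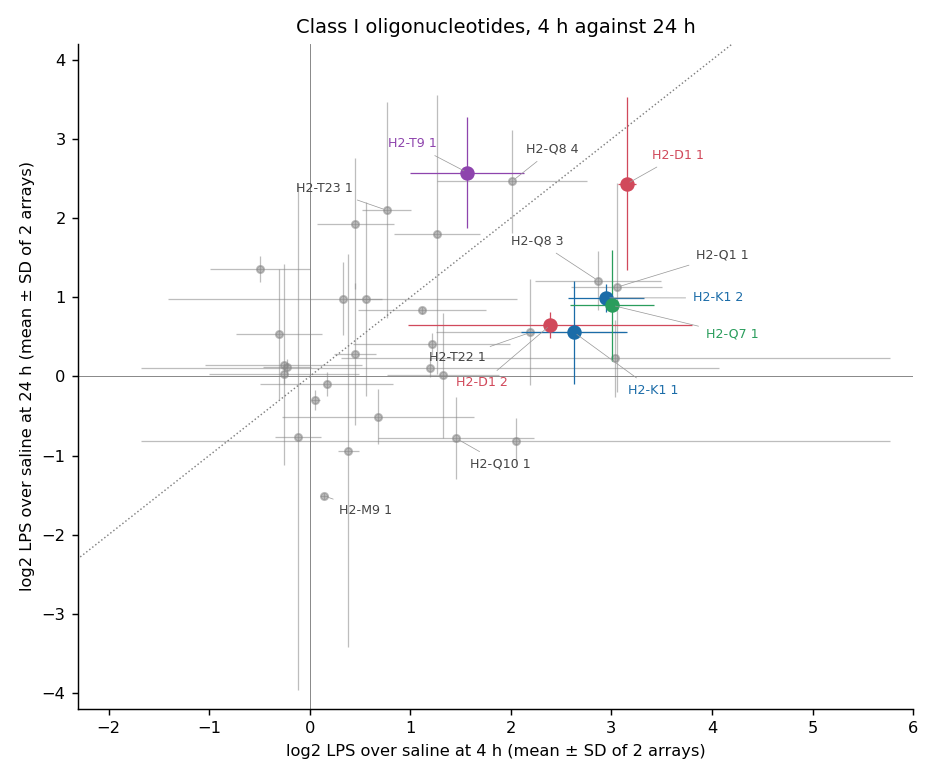
Mean log2 LPS over saline at 4 h (horizontal) and 24 h (vertical) of each class I oligonucleotide with a single H2 symbol, with bars for the SD of 2 arrays; the 6 oligonucleotides of the 4 genes are in colour and the 28 others in grey, numbered within their gene. Those of H2-K1, H2-Q7 and the second of H2-D1 lie together near H2-Q1 1, H2-Q8 3 and H2-T22 1, below the dotted line of equal ratios, whereas H2-T9 and H2-Q8 4 lie above it.

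Of 32 listed genes that supply and load class I peptides 27 were measured, of which 0 were called in either direction at 4 h, with a median of 0.08. Over all genes 2.25% were called higher and 0.997% lower, so a count of 0 in a list of this size lies near the background. At 24 h 5 of 27 were called higher and 0 lower, with a median of 0.24, where 3.48% and 3.52% of all genes were. The highest was Psmb10, an immunoproteasome subunit, at 2.66 ± 0.88. The others were the chaperone Hspa5 (1.74 ± 0.66), the proteasome activator Psme4 (1.65 ± 0.47), the aminopeptidase Lap3 (1.65 ± 0.68) and Sec61g of the translocon (1.59 ± 0.69). Psme2b, not on the list, has the name of a proteasome activator subunit and was met only through its likeness to H2-D1. It read 2.84 and 2.89 at 4 h and 1.80 and 1.40 at 24 h, and was called higher at both times.

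B2m, whose product pairs with the class I heavy chains, read -0.63 and -0.90 at 4 h and 0.01 and 0.06 at 24 h. It had 1 oligonucleotide, of which 1 spot lay well below 0 at 4 h (-1.27 and -1.81), while the other read -0.01 and 0.01. The peptide transporter subunits Tap1 and Tap2 stood at 0.68 ± 0.93 and -0.54 ± 1.23 at 4 h and at 0.01 ± 0.69 and -0.89 ± 0.18 at 24 h, with arrays on both sides of 1-fold at 4 h for Tap2 and at 24 h for Tap1. Tapbp, which bridges transporter and heavy chain, was within 0.3 units of 0 on all 4 arrays. The other immunoproteasome subunits Psmb8 and Psmb9 were above 0 on all 4 arrays, at 0.74 ± 0.51 and 0.86 ± 0.38 at 4 h and 0.71 ± 0.36 and 0.97 ± 0.68 at 24 h, without a call. Psmb10 at 4 h was at 1.27 ± 1.18, and the activator subunit Psme1 at 0.15 ± 0.54 and 0.24 ± 0.15.

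Among 25 measured of 31 listed regulators of class I genes, 4 were called higher and 0 lower at 4 h, and 3 higher and 1 lower at 24 h. The shares over all genes were 2.25% and 0.997% at 4 h and 3.48% and 3.52% at 24 h, so the 1 lower call is near the background. The medians were 0.05 and 0.08. Stat2, which carries the signal of type I interferon, stood at 2.54 ± 0.30 and 2.09 ± 0.10. Irf7, a regulator of interferon genes, stood at 1.91 ± 1.05 and 2.14 ± 0.13, so both were called at both times.

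Irf1, a factor that binds the IRF core, read 1.02 and 2.90 at 4 h and 0.20 and 0.59 at 24 h. Rela, the p65 subunit of NF-kB, read 1.37 and 1.77 at 4 h and -0.13 and -0.32 at 24 h. Irf1 and Rela were called at 4 h and not at 24 h, and the ratio at 24 h minus that at 4 h was -1.57 and -1.79. The part of any regulator in the class I ratios was not tested. At 24 h Atf1, a factor of cAMP response elements, was called higher at 1.11 ± 0.08 and Irf2, which binds the same sites as Irf1, lower at -1.72 ± 0.41. In the list of interferon and tumour necrosis factor ligands, receptors and signal proteins, 20 of 24 were measured, 0 were called at 4 h, and at 24 h 0 were higher and 2 lower, Ifna4 (-1.74 ± 0.51) and Ifna1 (-1.58 ± 0.24). Against the same shares over all genes, the counts of 0 in 20 are near the background. The 2 lower calls in 20 stand beside 3.52% of all genes. Both medians were -0.07.

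**Figure D5:**
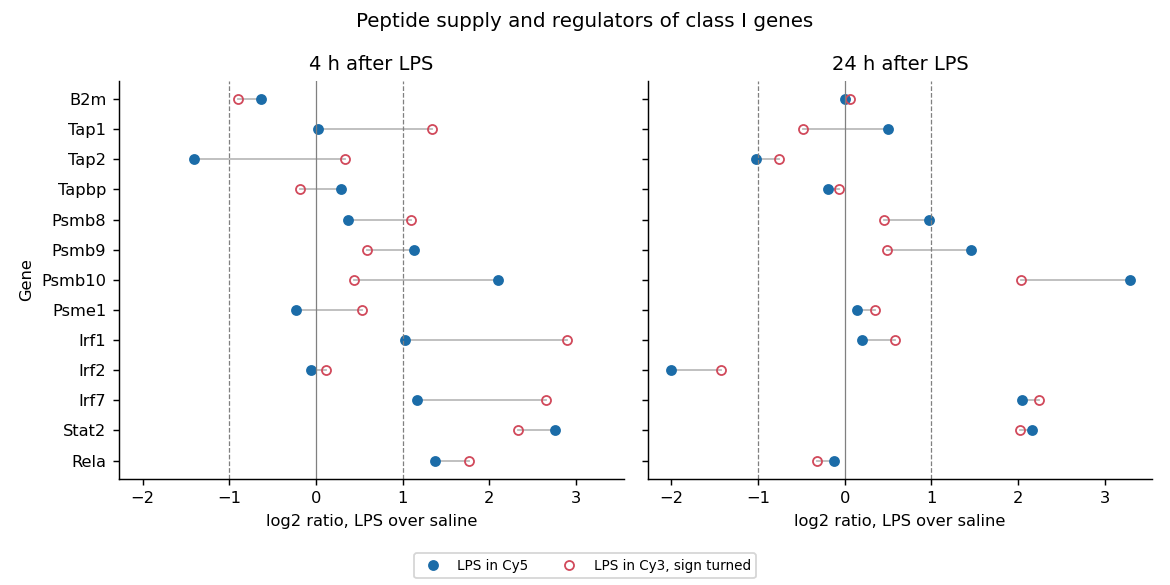
Gene-level log2 LPS over saline of genes that supply class I peptides or regulate class I transcription, at 4 h and 24 h; each row is 1 gene, filled points are LPS in Cy5, open points LPS in Cy3 with the sign turned, and dashed lines mark 2-fold. Irf1, Irf7, Stat2 and Rela lie beyond 1 on both arrays at 4 h, whereas B2m and the transporter genes do not; at 24 h Psmb10, Irf7 and Stat2 do.

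Markers of other cells were read beside these values. Of 6 pan-leukocyte markers 0 were called at 4 h and 1 of 6 at 24 h, Coro1a at 2.73 ± 1.70, while Ptprc stood at -0.58 ± 0.25 and -0.62 ± 0.14. Of 8 neutrophil markers 0 were called at 4 h. At 24 h 3 were higher (S100a8 at 2.59 ± 1.17, S100a9 at 1.55 ± 0.08 and Fpr2 at 1.20 ± 0.08) and 1 lower (Ngp at -1.62 ± 0.82). None of 7 monocyte and macrophage markers was called at either time, and of 8 lymphocyte markers only Cd5 was, lower at 24 h (-1.997 ± 0.998). With 2.25% of all genes called higher and 0.997% lower at 4 h, counts of 0 in lists this short are near the background. At 24 h 3.48% of all genes were called higher and 3.52% lower. The part of leukocytes in the class I ratios was not tested at either time.

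Of 11 measured endothelial markers 1 was called higher and 2 lower at 4 h, and 2 higher and 0 lower at 24 h, with medians of 0.01 and 0.04. For this and the next lists, 2.25% of all genes were called higher and 0.997% lower at 4 h, and 3.48% and 3.52% at 24 h. Kdr and Eng, receptors for VEGF and for TGF-beta family ligands, were lower at 4 h (-1.89 ± 0.75 and -1.87 ± 0.84) and higher at 24 h (2.21 ± 0.48 and 3.91 ± 0.85). Cldn5, of tight junctions, was higher at 4 h (1.29 ± 0.10) and not called at 24 h (-0.66 ± 0.86). Pecam1 and Cdh5 were not called. Of 10 cardiomyocyte markers Ryr2 was called, lower at 24 h (-1.40 ± 0.11), and of 5 fibroblast markers none was at either time. Of 7 smooth muscle and pericyte markers Actg2 was called, higher at 4 h (2.18 ± 0.58) and lower at 24 h (-2.42 ± 1.47). Of 4 erythrocyte markers Klf1 was called higher (2.01 ± 0.24) and Car1 lower (-1.75 ± 0.11), both at 24 h. The part of these in the class I ratios was not tested.

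The genes with the most similar ratios were found by the Euclidean distance over the 4 centred arrays. H2-K1 and H2-Q7 were each other's nearest gene of 11138, at 0.46, where the median distance to all genes was 4.40 and 4.74. H2-K1 was followed by Acot10 (0.83) and 4930442E04Rik (0.85), and H2-Q7 by Snx10 (0.84) and Cebpd (0.97). H2-D1 was 31st from both H2-K1 and H2-Q7, and its nearest genes were Rbm3 (0.75), Psme2b (0.90), which has the name of a proteasome activator subunit, and Usp25 (1.03). H2-T9 was 836th from H2-K1. Its nearest genes were Cnn3 (0.68), Psmb10 (0.76) and Itm2b (0.80), with Psmb10 at 2.10 and 0.44 at 4 h and 3.29 and 2.04 at 24 h, beside 1.98 and 1.16, then 3.10 and 2.01, for H2-T9.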

How the data were processed

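The deposited table held log2 ratios, per the labels of 2-colour arrays, as the authors had processed them. No source used here gives the background correction, dye normalization or filters. Spots with a ratio of exactly 1 made up 10.2% to 13.4% of an array. Names came from a platform annotation of 2007, in which 24344 spots had 1 symbol, 98 several and 8006 were not listed, and 24076 matched a RefSeq gene (GRCm38.p6) by identifier. The identifier of H2-T9 was not among the RefSeq genes, so this gene kept the annotation's symbol. The SD of spots was 1.59, 0.98, 1.44 and 1.44.

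The sign of LPS-in-Cy3 arrays was turned. Single spots and oligonucleotides are given as deposited apart from the sign. For genes, the 2 spots of an oligonucleotide and then the oligonucleotides were averaged and arrays centred on their median over genes. No test was run, since a dye-reversed pair was counted as 1 replicate. Genes and lists were chosen with earlier results of these data known. Named were all spots of the 4 genes, called list genes, all other listed heavy chains, a fixed set of peptide supply genes and regulators, and the 3 nearest genes of each. Alternatives covered centring, scaling, quantile normalization, spot rules, thresholds, signs and single arrays. Python 3.11.15, numpy 2.4.6, pandas 2.3.3 and Biopython 1.88 were used, and the steps were tested on simulated data.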

Additional observations from a re-analysis of the deposited data

Results flagged for a closer look

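Of 47 list genes and class I genes checked, 7 had both arrays on one side of 0 at 4 h and both on the other at 24 h. Over all genes 12.3% did, so the count is near the background. The difference between times was not tested. Values are 24 h minus 4 h in log2 units. It was -2.26 for H2-Q10, -1.79 for Rela, -1.68 for H2-M9, -0.38 for H2-T3 and -0.30 for Fcgrt, each above 0 at 4 h and below 0 at 24 h. It was 1.32 for H2-T24 and 0.80 for B2m, which were below 0 at 4 h and above 0 at 24 h. Without centring 5 of the 7 kept this pattern and Fcgrt and B2m did not, since Fcgrt then read 0.05 on replicate 2 at 24 h and both B2m spots -0.01 on replicate 1 at 24 h. In Fcgrt, H2-T3 and B2m every array lay within 1 unit of 0. The B2m value at 4 h came from 1 of its 2 spots. The 2 oligonucleotides of H2-T24 had largest duplicate gaps of 2.20 and 2.49. Without centring the first read -0.60, 0.00, -0.04 and 1.11 on the 4 arrays and did not show the pattern by itself. H2-K1, H2-D1, H2-Q7 and H2-T9 are not among the 7, since both arrays were above 0 at both times in each.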

How the results depend on the processing

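The 4 class I genes kept their direction under every alternative with turned signs. With signs as deposited, H2-K1 and H2-Q7 at 24 h read -0.25 and -0.46, the medians over the 4 genes 0.37 (4 h) and 0.12 (24 h), their difference -0.31, and 0 genes of the 4 were called at either time. Over all genes this setting called 87 higher and 71 lower at 4 h, 190 and 221 at 24 h. With scaled arrays the medians were 3.51 and 0.94 and the difference -2.62, with 1 of 4 called at 24 h, and all-gene counts were 210 lower at 4 h, 212 higher and 212 lower at 24 h. Quantile normalization gave a median of 1.13 at 24 h, 1 of 4 called, and 233 and 252 lower genes at 4 h and 24 h. At 24 h 1 of 4 was also called with the median of spots, with every spot required, with ratios of exactly 1 left out and at 3-fold. Requiring every spot called 139 higher and 37 lower genes at 4 h, 214 and 187 at 24 h. At 4 h 3 of 4 were called at 3-fold. At 1.5-fold, over all genes, there were 550, 391, 932 and 876, and at 3-fold 97, 29, 122 and 113. Without replicate 1 or replicate 2, the counts ranged from 780 to 1273 higher and 634 to 1044 lower at 4 h, and from 1444 to 1740 and 1499 to 1964 at 24 h. With either left out, the median over the 4 genes at 24 h was 1.18 to 1.26, and 2 to 4 of them passed 2-fold. The table holds no intensities, so signal over background is unknown, as is the spread between animals.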

Other observations

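Class II molecules present peptides from outside the cell. Of 15 listed class II and loading genes 11 were measured. Only Ctsl, a lysosomal protease, was called, higher at 4 h (2.08 ± 0.13) and at 24 h (3.32 ± 0.03). Of all genes 2.25% were called higher and 0.997% lower at 4 h, and 3.48% and 3.52% at 24 h. H2-Ab1 stood at 0.05 ± 0.29 and -0.05 ± 0.12, H2-Aa at 0.16 ± 0.22 and 0.44 ± 1.16, and Cd74, the invariant chain, at -0.03 ± 0.02 and 0.85 ± 0.33. The list's medians were 0.05 and 0.20.

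Of 18 listed receptors that bind class I or signal with them, such as CD8 chains and Ly49 receptors, 17 were measured and none was called at either time, with medians of 0.02 and -0.05. Over all genes 2.25% were called higher and 0.997% lower at 4 h, and 3.48% and 3.52% at 24 h, so a count of 0 in 17 is near the background.

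The 2 oligonucleotides with several class I symbols were left out of the gene values and counts above. That for H2-T9 or H2-T10 read 1.07 and -0.36 at 4 h and 0.24 and 0.00 at 24 h. That for H2-Tw3, H2-T3, H2-T18 or H2-D1 read 4.08 and -0.28, then -0.94 and -0.78. Neither was at least 2-fold on both arrays in one direction.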
